A study of Mus musculus with 2 samples.

Results

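The genes described here are 10 established targets of the FoxO transcription factors: Ccng2, Cdkn1b, Bcl6, Sesn1, Sesn3, Gadd45a, Txnip, Bcl2l11, Klf2 and Pdk4. They were taken by symbol from the 32285 genes of the deposited gene lists, and all 10 had UMIs in the kept cells of both libraries. A UMI (unique molecular identifier) marks 1 captured transcript molecule, so that PCR copies are counted once. In GENCODE M21 the members lie on chromosomes 2 (Bcl2l11), 3 (Txnip), 5 (Ccng2), 6 (Cdkn1b, Gadd45a and Pdk4), 8 (Klf2), 9 (Sesn3), 10 (Sesn1) and 16 (Bcl6), and all are protein-coding genes.

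Red fluorescent epithelial cells were sorted from mouse small intestine and their transcripts were counted cell by cell with a 10x Genomics 3′ kit. The WT library came from Neurog3Cre; Rosa26tdtomato mice, whose Cre is under the control of Neurog3 (active in endocrine progenitors) and leaves the descendants of those cells red. The library labelled NFKO came from Neurog3Cre-FoxO1 f/f; Rosa26tdtomato mice, so both groups carried the Cre and the reporter and differed in the floxed FoxO1 alleles. Each group was 1 library pooled from 4 to 5 mice aged 4 to 6 weeks, so no difference between genotypes below has a replicate check or a test.

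FoxO factors are held in the cytoplasm while insulin and growth factor signals keep the kinase Akt active, and they move to the nucleus and switch on their targets when that signal falls. Their targets serve several programmes: exit from the cell cycle, defence against oxidants and DNA damage, cell death, and the switch from glucose to fatty acid use. In the gut, FoxO1 has been studied mostly in the enteroendocrine lineage, the scattered epithelial cells that secrete hormones.

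FoxO factors bind the letters GTAAACA and, more loosely, CAAAACA, and the start of each member was searched for both on either strand. RefSeq promoter windows of 300 bases, from 250 before to 50 after the start on GRCm38.p6, were found for all 10 members, 13 windows in all. GTAAACA stood in 3 of the 13 windows, those of Bcl2l11, Sesn1 and Txnip, and in 3.65% of all 32851 mouse windows. CAAAACA stood in 1, that of Ccng2, and in 6.28% of all windows. The shorter TAAACA, which lies within GTAAACA, added Cdkn1b and stood in 13.4% of all windows. A match describes letters and does not show that a factor binds there.

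The 4 stretches with a match are printed because they are where the sequence of these genes itself resembles a FoxO site. They run 5′ to 3′ on the plus strand of GRCm38.p6, with the matched letters in capitals. Bcl2l11 is at chr2:128125788-128125887, Txnip at chr3:96557790-96557889, Ccng2 at chr5:93267546-93267575 and Sesn1 at chr10:41810585-41810614, where the match is on the opposite strand.
Bcl2l11: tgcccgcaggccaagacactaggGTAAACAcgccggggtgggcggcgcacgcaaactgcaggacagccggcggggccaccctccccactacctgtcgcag
Txnip: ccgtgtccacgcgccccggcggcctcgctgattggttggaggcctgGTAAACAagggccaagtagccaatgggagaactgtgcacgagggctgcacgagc
Ccng2: cgtcgcagactCAAAACAaaaacaaggggt
Sesn1: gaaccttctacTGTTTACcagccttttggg
Counted from the RefSeq start, the match began at -227 in Bcl2l11, -121 in Txnip, -16 in Ccng2 and 22 in Sesn1. The Bcl2l11 and Txnip stretches lie upstream of the gene in GENCODE M21 as well, and the Ccng2 and Sesn1 stretches lie inside it.

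After filters, 3003 WT cells with 78424392 UMIs and 5292 cells of the NFKO-labelled library with 111522270 UMIs were compared, with a median of 16883 and 17035 UMIs a cell. The cells were clustered without the members, and classes were named from markers: 893 WT and 1910 NFKO enteroendocrine-like cells, 912 and 1789 goblet-like, 264 and 236 Paneth-like, 256 and 356 enterocyte-like, 88 and 170 tuft-like, 305 and 211 stem-like and 101 and 293 cycling-like. Of the markers of each class, all were at least 2-fold higher inside it, except 7 of 8 for the stem-like cluster, which also carried all 9 cycling markers. The pools differed in sex, with 2424 male-typed and 6 female-typed WT cells against 357 and 4357 in the other library, so that sex and genotype cannot be told apart in a ratio over a whole class. In kept cells, 4 barcodes occurred in both libraries. Over all kept cells, per 1000000 UMIs, immune markers summed to 282 in WT and to 151 in the other library, and stromal and acinar markers to at most 2.33.

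Levels are UMIs per 1000000 UMIs of the class (CPM), and every ratio is NFKO over WT. The range in brackets after a level is an exact Poisson 95% interval and after a ratio an exact conditional binomial one. Both cover counting error only, not the spread between cells or mice. Paneth markers alone took 553709 CPM in WT Paneth-like cells and 539495 in the others, so levels of other genes there are low on this scale.

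Foxo1, the gene the label says was deleted, stood at 11.5 CPM in all WT cells (905 UMIs) and at 12.4 in the NFKO-labelled library (1382 UMIs), giving a ratio of 1.07 (0.987 to 1.17). Scaling by median-of-ratios size factors, which differ from totals by 0.20 on the log2 scale over all cells, gave 0.937. In enteroendocrine-like cells Foxo1 was at 25.4 and 22.1 CPM, giving a ratio of 0.872 (0.756 to 1.01). The ratio was 0.901 in goblet-like, 1.04 in Paneth-like and 1.38 (1.11 to 1.70) in stem-like cells, and it was lowest in cycling-like (0.521) and tuft-like cells (0.302, from 18 and 19 UMIs). A 3′ count does not see the loss of an internal exon where a shortened transcript is still made, so these values do not check the deletion. The labels were therefore used as given.

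Enteroendocrine-like cells were also divided into 8 subtypes by the hormone or progenitor gene that was strongest in the cell relative to its own range, so that a Gip-dominant cell is one led by Gip. The class pattern of most members was shared by both libraries. Over 14 points, the 6 classes other than enteroendocrine-like and the 8 hormone subtypes, the correlation of log2 levels between libraries was 0.98 for Cdkn1b, 0.97 for Gadd45a, 0.96 for Klf2, 0.93 for Sesn3, between 0.80 and 0.88 for Sesn1, Ccng2, Bcl2l11, Pdk4 and Txnip, and 0.41 for the sparse Bcl6. These are descriptions, since the points of a library share its depth and handling. Klf2, Gadd45a, Sesn3 and Pdk4 were highest in enteroendocrine-like cells in both libraries, with no overlap with the next class. Sesn1 was highest in enterocyte-like cells in both.

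**Figure D1:**
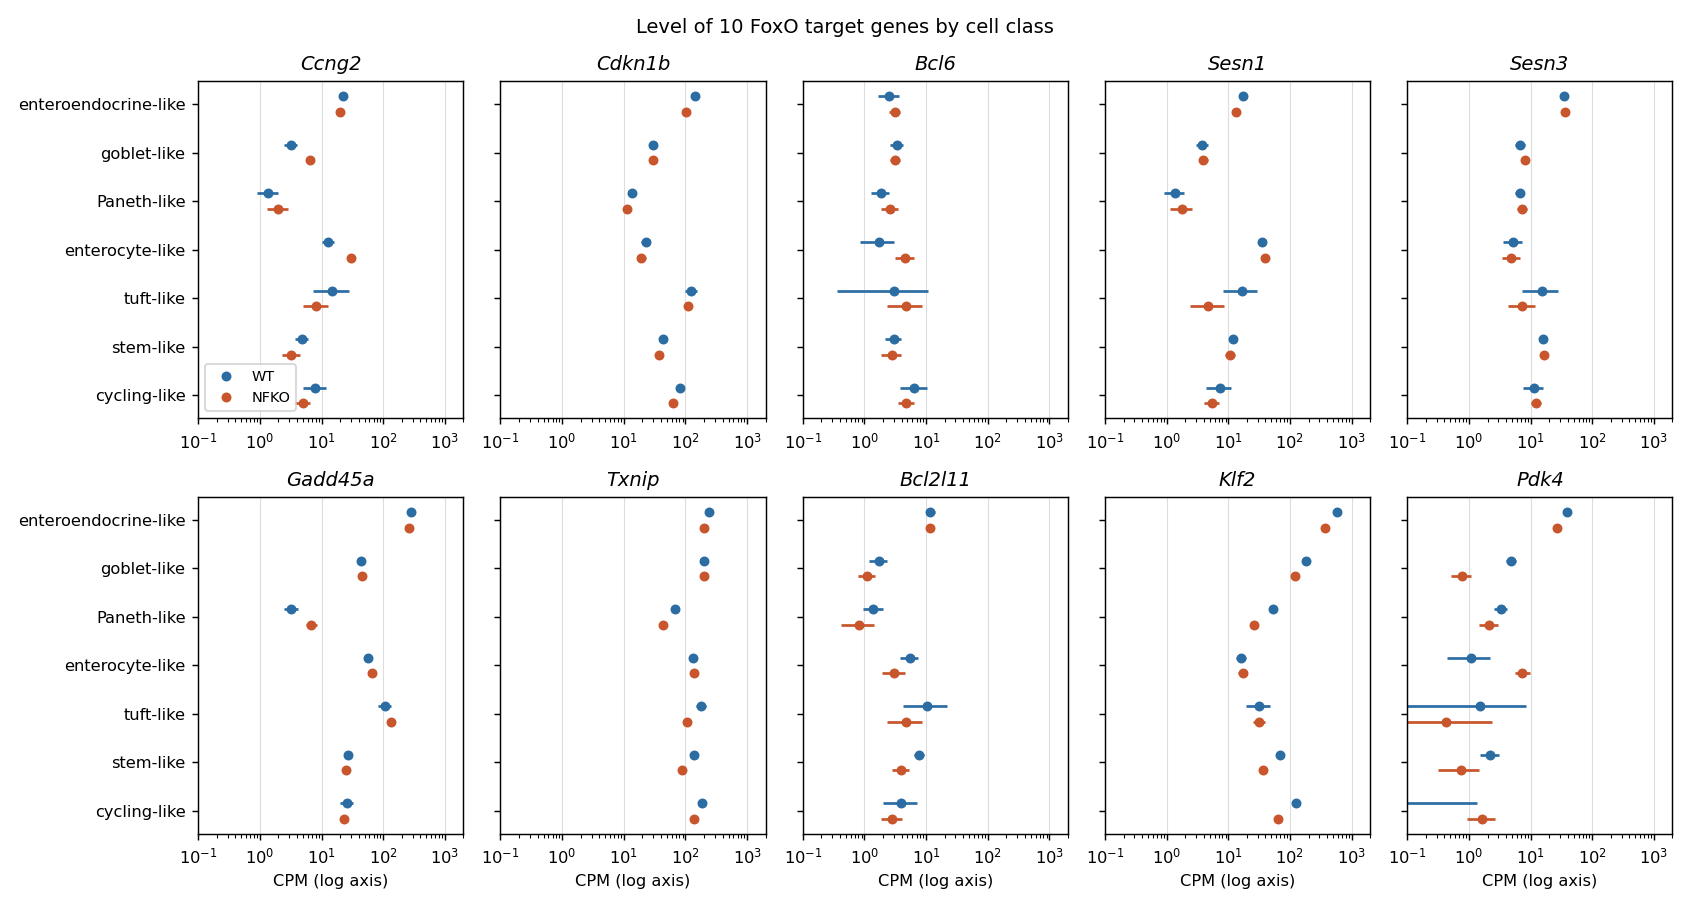
Level of the 10 members in CPM (log axis) in 7 cell classes, WT in blue and the NFKO-labelled library in orange, 1 library each. Lines are exact Poisson 95% intervals and a line without a point is a level of 0; Klf2, Gadd45a, Sesn3 and Pdk4 are highest in enteroendocrine-like cells in both libraries.

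A member was called higher or lower where the ratio was at least 1.5-fold from 1 and at least 20 UMIs were counted over both libraries. The background is the share of all genes with at least 50 UMIs past the same fold. At the members' own minimum of 20 UMIs that share is larger in every class and subtype, from 6.36% to 20.9%, with 8.46% higher and 8.44% lower in enteroendocrine-like cells and 18.6% lower in tuft-like cells. In enteroendocrine-like cells 0 of 10 members were higher (background 6.60%) and 1 was lower, Klf2 (background 6.44%). In goblet-like cells Ccng2 was higher (background 7.70%) and Bcl2l11, Klf2 and Pdk4 were lower (background 4.87%). In Paneth-like cells Gadd45a was higher (background 9.37%) and Txnip, Bcl2l11, Klf2 and Pdk4 were lower (background 5.12%). The same 4 members were lower in stem-like cells (background 6.40%), where 0 were higher (background 4.97%).

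Enterocyte-like cells had Ccng2, Bcl6 and Pdk4 higher (background 10.5%) and Bcl2l11 lower (background 10.2%). In cycling-like cells 0 of 9 members were higher (background 7.50%), and Ccng2 and Klf2 were lower (background 5.80%). In the shallow tuft-like cells 0 of 7 were higher (background 19.9%), and Ccng2, Sesn1, Sesn3 and Txnip were lower (background 14.6%). Over members with at least 50 UMIs, the median log2 ratio was -0.22 in enteroendocrine-like cells against -0.03 over all genes, 0.01 against 0.01 in goblet-like cells, and -0.21 against -0.04 in stem-like cells. It was 0.13 against 0.11 in Paneth-like, 0.08 against -0.03 in enterocyte-like, -0.09 against 0.05 in tuft-like (4 members) and -0.41 against 0.03 in cycling-like cells. Over all members given a ratio, those with at least 20 UMIs, it was -0.06 in Paneth-like, 0.12 in enterocyte-like, -0.78 in tuft-like (7 members) and -0.39 in stem-like cells.

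**Figure D2:**
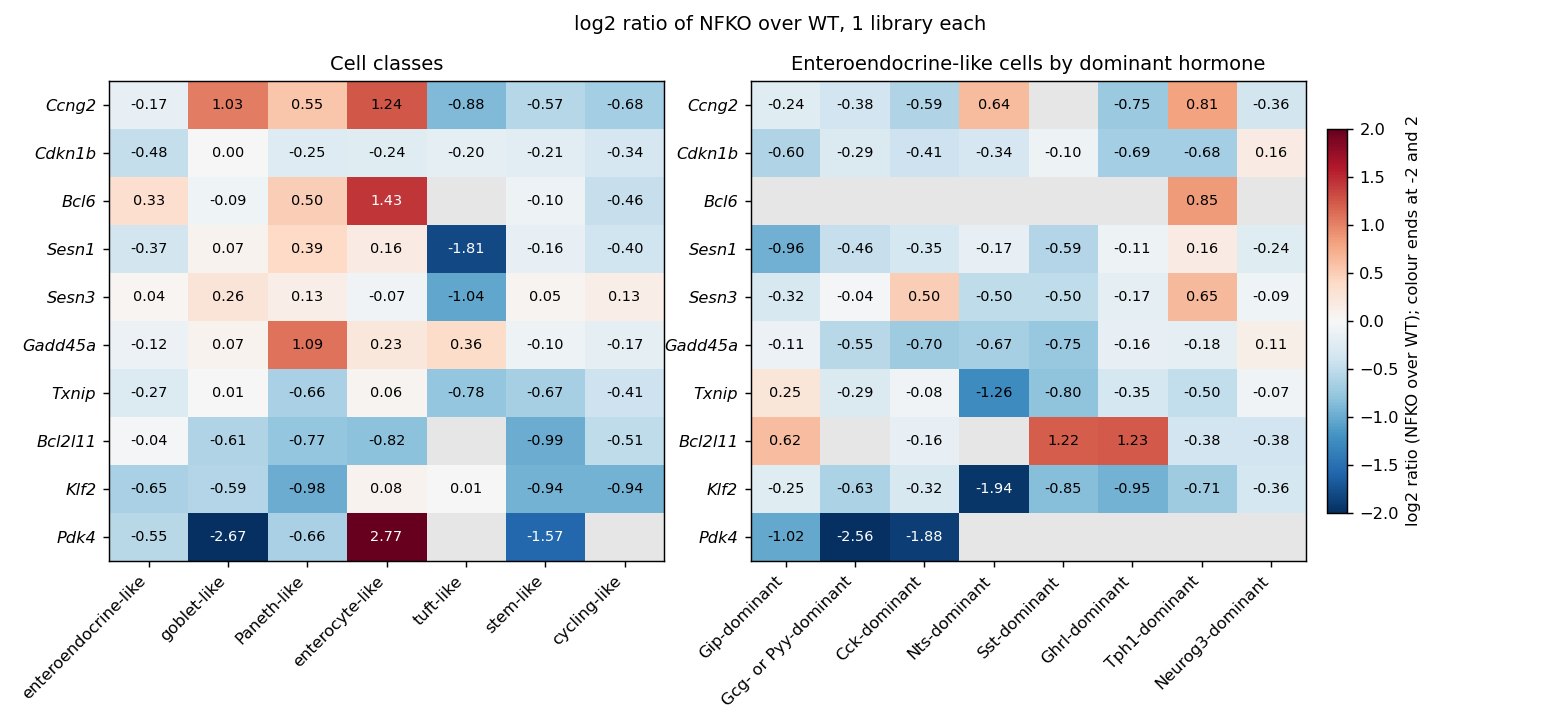
log2 ratio of NFKO over WT for each member in 7 classes (left) and in enteroendocrine-like cells grouped by dominant hormone (right), 1 library each, with colours ending at -2 and 2. Grey cells had too few UMIs; Klf2 is negative in all 8 hormone groups, and Pdk4 runs from -2.67 in goblet-like to 2.77 in enterocyte-like cells.

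Cell cycle genes are taken first. Ccng2 encodes cyclin G2, an atypical cyclin linked to exit from the cell cycle. In enterocyte-like cells it was at 12.7 CPM (10.1 to 15.7, 82 UMIs) in WT and between 26.1 and 34.3 CPM in the other library (216 UMIs), giving a ratio of 2.37 (1.83 to 3.09). The clusters inside that class did not show this difference. Cluster 8, led by Apoa4, Apoa1 and other genes of mature absorptive cells, had 49.7 and 53.9 CPM, giving a ratio of 1.08 (0.747 to 1.62). Cluster 16 had 8.43 and 5.61 CPM, giving a ratio of 0.665 (0.374 to 1.14). The class was a different mixture in each library: cluster 8 gave 123 of 256 WT cells and 246 of 356 NFKO cells, its cells were shallow (median 4386 UMIs against 34884 in cluster 16), and the 10 enterocyte markers summed to 3808 and 24930 CPM. Weighted over both clusters, the Ccng2 ratio was 0.917.

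In goblet-like cells Ccng2 was at 3.16 and 6.44 CPM, giving a ratio of 2.04 (1.54 to 2.73). Of the 237 NFKO UMIs, 201 lay in cluster 1, which held 86 WT and 803 NFKO cells and had 10.2 and 20.8 CPM (ratio 2.04, 0.973 to 5.14). Cluster 3, led by Edn2, Areg and Hspa1a, held 592 WT and 25 NFKO cells. Leaving out clusters with at least 90% of their cells from 1 library gave 0.962, weighting over clusters gave 1.36 and male-typed cells gave 2.31 (1.35 to 3.81). The ratio stayed above 1 in 11 of 12 alternatives. Among hormone subtypes Ccng2 was higher in Tph1-dominant cells, the serotonin producers, at 22.9 and 40.0 CPM (ratio 1.75, with an interval above 1 and up to 2.50), and lower in Ghrl-dominant cells, at 34.0 and 20.2 (ratio 0.595, 0.368 to 0.976). Clusters 6 and 11, where Tph1 led, had Ccng2 ratios nearer to 1. Cluster 6 held 177 WT and 274 NFKO cells and had 22.4 and 22.0 CPM (ratio 0.984, 0.673 to 1.45). Cluster 11 held 32 and 264 cells and had 41.7 and 51.8 CPM (ratio 1.24, 0.688 to 2.47). In WT the Ccng2 levels of the subtypes overlapped from each neighbour to the next.

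**Figure D3:**
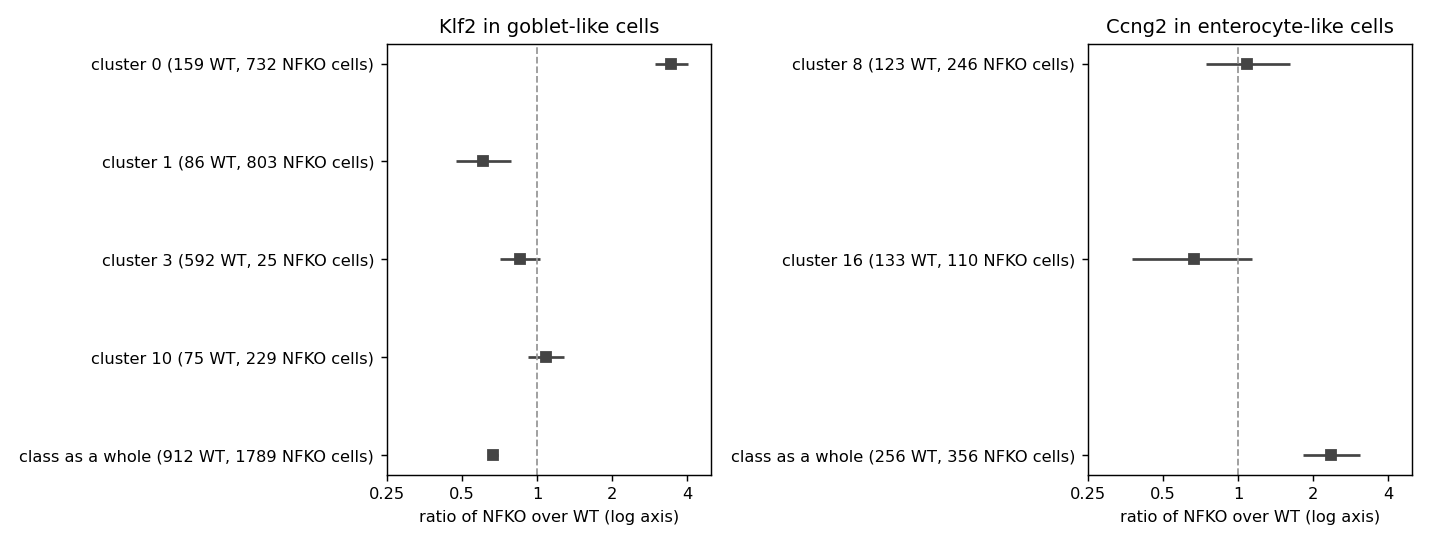
Ratio of NFKO over WT (log axis) of Klf2 in goblet-like clusters (left) and of Ccng2 in enterocyte-like clusters (right), with the whole class in the bottom line of each panel and exact 95% intervals for counting error. Klf2 lies on both sides of 1 among the goblet-like clusters, from 0.606 to 3.44, and the Ccng2 ratio of 2.37 for the class is above that of both its clusters.

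Cdkn1b encodes p27, an inhibitor of cyclin-dependent kinases. It was at 143 CPM (136 to 150) in WT enteroendocrine-like cells and 102 (98.6 to 106) in the others, giving a ratio of 0.717 (0.674 to 0.763), lower but short of 1.5-fold. The direction held in 13 of 13 alternative treatments of the data, from 0.673 to 0.805. In goblet-like cells the ratio was 1.00 (0.906 to 1.11). Tph1-dominant cells had the most Cdkn1b in both libraries, at 243 and 152 CPM, apart from the next subtype in each, with a ratio of 0.624 (0.554 to 0.703). Gip-dominant (ratio 0.658) and Ghrl-dominant cells (ratio 0.621) also passed 1.5-fold, whereas Neurog3-dominant cells, the progenitors, had 95.3 and 106 CPM, giving a ratio of 1.12 (0.932 to 1.34). Clusters 6 and 11, where Tph1 led, did not reach 1.5-fold. Cluster 6 had 252 and 206 CPM (ratio 0.818, 0.729 to 0.918), and cluster 11 had 101 and 83.9 (ratio 0.833, 0.563 to 1.28).

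Bcl6, a transcriptional repressor, was sparse, at 2.73 CPM over all WT cells and 3.33 over the others, and every class overlapped the next in order. In enterocyte-like cells 11 WT and 33 NFKO UMIs gave 1.70 and 4.58 CPM, giving a ratio of 2.70 (1.33 to 5.92). Of these, the mature cluster 8 held 0 and 24 UMIs. The ratio in cluster 16 was 1.33 (0.488 to 3.54), with an interval that includes 1.

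The members of the stress response follow. Gadd45a encodes a small protein induced by DNA damage. It marked the progenitors: Neurog3-dominant cells held 705 CPM in WT (666 to 746) and 763 in the NFKO-labelled library (738 to 790), far above Tph1-dominant cells at 257 and 227. With a ratio of 1.08 (1.01 to 1.16) the progenitors differed little between libraries. Of the hormone-producing subtypes, 3 passed 1.5-fold, with 197 and 121 CPM in Cck-dominant cells (ratio 0.614), 123 and 73.3 in Sst-dominant cells (ratio 0.594) and 115 and 72.5 in Nts-dominant cells (ratio 0.629). Gcg- or Pyy-dominant cells, at 149 and 101 CPM (ratio 0.682), fell short of it, and the ratios in Gip-dominant, Ghrl-dominant and Tph1-dominant cells were 0.924, 0.894 and 0.884. The Cck and Nts values turned to 1.06 and 1.18 when whole clusters were named by hormone. Both rest on little: the Cck-led cluster 22 held 13 WT cells. The Nts-led cluster 19 held 8 WT and 76 NFKO UMIs of Gadd45a, with an interval that includes 1 (0.571 to 2.84). In Paneth-like cells Gadd45a was higher from a low level, 3.22 and 6.86 CPM (67 and 101 UMIs), giving a ratio of 2.13 (1.55 to 2.95). Both Paneth-like clusters were above 1 there, at 2.37 (1.62 to 3.52) and 1.75 (0.955 to 3.23).

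**Figure D4:**
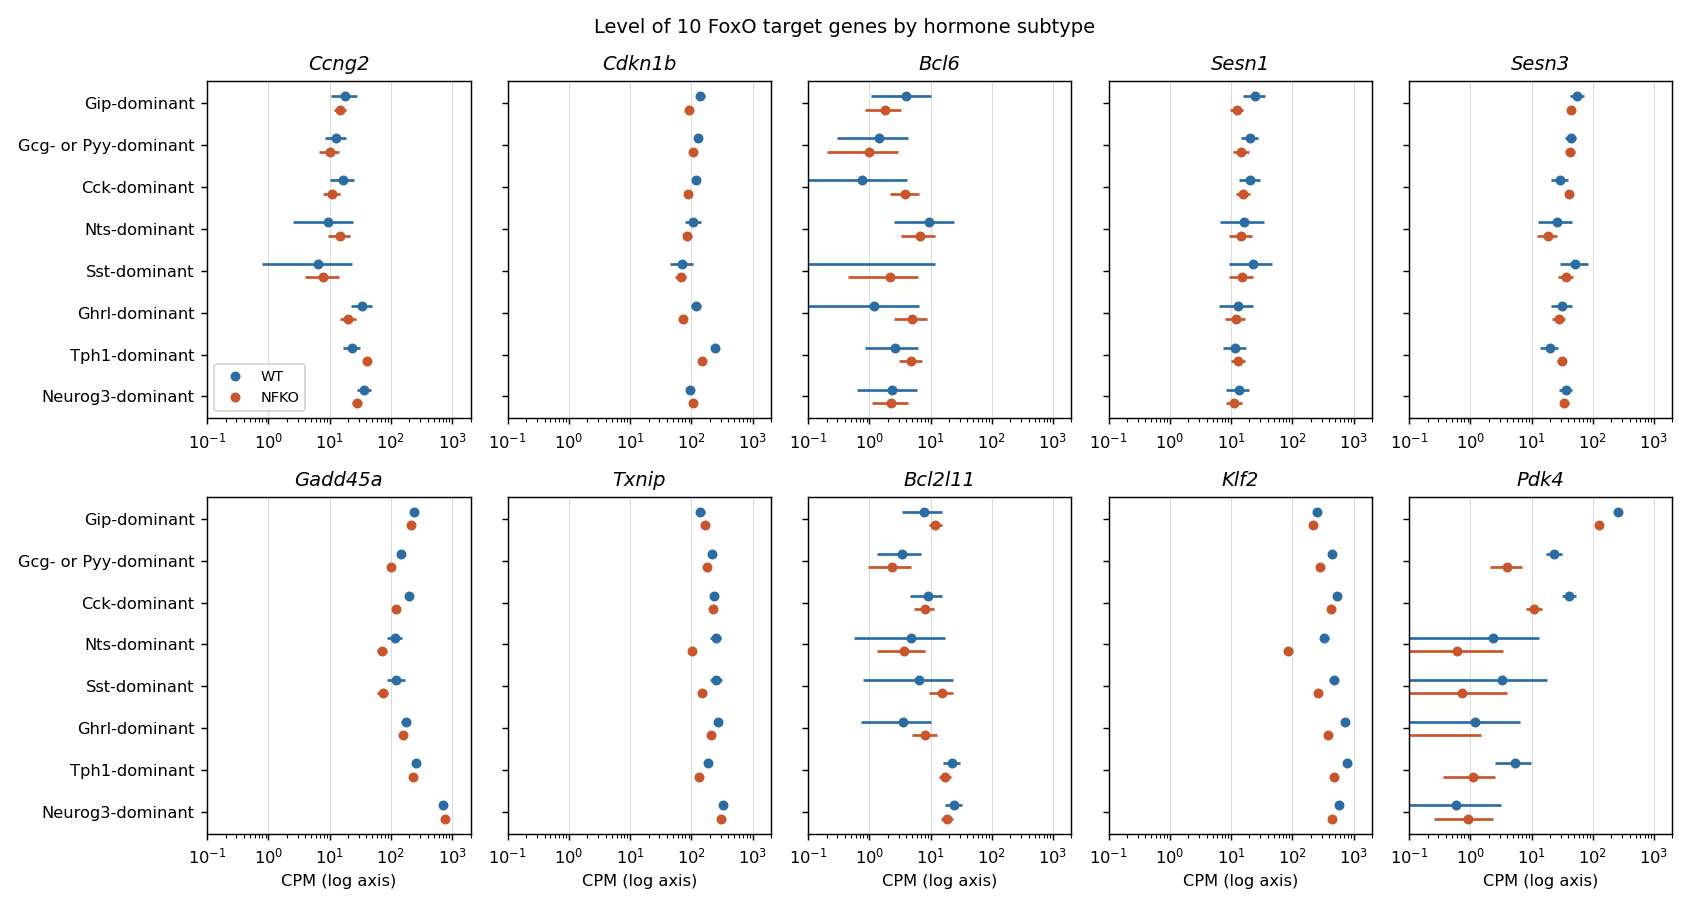
Level of the 10 members in CPM (log axis) in 8 groups of enteroendocrine-like cells by dominant hormone, WT in blue and the NFKO-labelled library in orange, with exact Poisson 95% intervals. Gadd45a peaks in Neurog3-dominant and Pdk4 in Gip-dominant cells in both libraries, and the WT point of Klf2 is to the right of the NFKO point in every group.

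Sesn1 and Sesn3 encode sestrins, which restrain the growth kinase complex mTORC1 and take part in antioxidant defence. They had different sites of expression. Sesn1 was highest in enterocyte-like cells, at 34.7 and 38.7 CPM, giving a ratio of 1.12 (0.932 to 1.34). Inside that class the ratio was 0.646 (0.473 to 0.897) in cluster 8 and 0.895 (0.689 to 1.16) in cluster 16, and it was 0.602 in male-typed cells. Sesn3 was highest in enteroendocrine-like cells, at 34.9 and 35.9, giving a ratio of 1.03 (0.914 to 1.16), an interval that leaves out a 1.5-fold difference. In enteroendocrine-like cells Sesn1 was at 17.2 and 13.3 CPM (ratio 0.772, 0.646 to 0.924), short of 1.5-fold, and it was called lower in Sst-dominant and in Gip-dominant cells, in the latter at 24.4 and 12.5 (ratio 0.514, 0.322 to 0.848). Sesn3 was higher in Tph1-dominant cells, at 19.7 and 30.9 CPM (ratio 1.57, 1.09 to 2.32). The lower tuft-like values of both sestrins rest on 11 WT UMIs for Sesn1 and 10 for Sesn3.

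Txnip encodes a thioredoxin-binding protein whose transcript follows glucose supply in many cells. It was broadly expressed, from 68.7 CPM in Paneth-like to 238 in enteroendocrine-like WT cells. In stem-like cells it was at 139 CPM in WT (2142 UMIs) and 87.2 in the NFKO-labelled library (943 UMIs), giving a ratio of 0.629 (0.582 to 0.680). Paneth-like cells had 68.7 and 43.6 CPM (ratio 0.635, 0.578 to 0.697) and tuft-like cells 182 and 106 (ratio 0.583, 0.467 to 0.731). Goblet-like cells had 198 and 199 CPM, giving a ratio of 1.01 (0.969 to 1.05), and enterocyte-like cells 132 and 138, giving 1.04 (0.950 to 1.14). The goblet-like value was not even across the class, at 0.733 in male-typed cells and 0.635 in cluster 10. The direction in stem-like, Paneth-like and tuft-like cells held in every alternative run, 10, 11 and 10 of them, with ratios up to 0.735, 0.844 and 0.841. In male-typed cells the stem-like ratio was 0.651 (286 and 29 cells). Both Paneth-like clusters had intervals below 1.

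Among hormone subtypes Txnip was highest in Neurog3-dominant cells, at 324 and 309 CPM. Its ratio was lowest in Nts-dominant cells, at 249 and 104 CPM (0.418, 0.326 to 0.537), where the median cell held 4717 UMIs for WT against 16888. Sst-dominant cells had 256 and 147 CPM (0.574), and Gip-dominant cells 139 and 165 (1.19, 0.995 to 1.43). Of 10 genes of glucose sensing and the thioredoxin system around Txnip, 1 was higher (background 6.60%) and 0 were lower (background 6.44%) in enteroendocrine-like cells. The higher one was Slc2a2, a glucose transporter, from a low level (0.552 and 1.68 CPM). The lowest ratios were 0.687 for Arrdc3, an arrestin relative of Txnip, and 0.811 for Mlxip, and Txn1, thioredoxin, had 1.19.

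Bcl2l11 encodes Bim, which triggers apoptosis. It was at 11.8 and 11.4 CPM in enteroendocrine-like cells, giving a ratio of 0.973 (0.791 to 1.20). In stem-like cells it was at 7.70 CPM in WT (119 UMIs) and 3.88 in the NFKO-labelled library (42 UMIs), giving a ratio of 0.504 (0.346 to 0.723). That direction held in 10 of 10 alternatives, from 0.424 to 0.816, the latter in male-typed cells. In goblet-like and Paneth-like cells the ratios of 0.656 and 0.585 had intervals that included 1, and in enterocyte-like cells it was 0.565 (0.316 to 0.991). Neurog3-dominant and Tph1-dominant cells held the most in WT, at 24.2 and 22.3 CPM, overlapping each other. Gip-dominant, Sst-dominant and Ghrl-dominant cells had ratios of 1.54, 2.32 and 2.35 from 8, 2 and 3 WT UMIs, with intervals that included 1.

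Klf2, a Krüppel-like transcription factor known from quiescent lymphocytes and endothelium, was called lower in more of the 7 classes, 5, than any other member. It was at 577 CPM (562 to 591) in WT enteroendocrine-like cells and 368 (361 to 375) in the NFKO-labelled library, giving a ratio of 0.639 (0.619 to 0.659). Goblet-like cells had 184 and 123 CPM (0.666), Paneth-like 52.3 and 26.4 (0.505), stem-like 68.8 and 35.9 (0.522) and cycling-like 123 and 63.9 (0.519). Tuft-like (31.6 and 31.8) and enterocyte-like cells (16.2 and 17.1) had ratios of 1.01 and 1.05 with intervals that included 1. All 8 hormone subtypes had intervals below 1, from 0.261 (0.205 to 0.332) in Nts-dominant to 0.841 (0.735 to 0.966) in Gip-dominant cells. Whole clusters did not all show this. The Klf2 ratio was 0.969 (0.591 to 1.68) in cluster 19, where Nts led, and 1.10 (0.887 to 1.37) in cluster 11, where Tph1 led. It was 0.914 (0.742 to 1.13) in cluster 20, where Gcg or Pyy led. Of 8 enteroendocrine-like clusters, 5 had intervals below 1. The median Nts-dominant cell held 4717 UMIs for WT against 16888. In WT, Tph1-dominant and Ghrl-dominant cells were highest, at 775 and 731 CPM, and Gip-dominant cells lowest, at 254.

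With every cell thinned to 2000 UMIs, 44.5% (41.2 to 47.9) of WT and 36.2% (34.0 to 38.4) of NFKO enteroendocrine-like cells had a Klf2 UMI, against 66.5% and 63.4% unthinned at medians of 12490 and 15398 UMIs. In enterocyte-like cells, where Klf2 was lowest, the thinned shares were 2.36% and 5.43%, at medians of 14257 and 8931.5. Transcripts were unevenly held, with 50% of the WT enteroendocrine-like UMIs in 106 of 893 cells.

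Klf2 moved with the immediate early genes, which cells switch on within minutes of stimulation or handling. The 3 genes most like it over the 14 points in WT, among 9563 searched, were Fosb, Fos and Egr1, with correlations of 0.97, 0.97 and 0.96, and of 0.88, 0.87 and 0.92 in the other library. In enteroendocrine-like cells the 15 immediate early genes summed to 13711 CPM in WT and 9806 in the NFKO-labelled library, with 4 of 15 lower and 0 higher against 6.44% and 6.60% of all genes. The lowest ratios were those of Atf3 (0.440) and Jun (0.502), and the highest those of Klf4 (1.07) and Ier2 (0.960). The 12 heat shock genes summed to 9355 and 5737 CPM, with 7 of 12 lower, Hspa1a (401 and 39.2) and Hspa1b (ratio 0.117) the most, and 1 higher, Hspb1 (1.61), next to Hspa8 at 0.911. Goblet-like cells had heat shock sums of 5662 and 2758, with 10 of 12 genes lower against 4.87% of all genes.

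Among cells at or below the WT median share of these stress genes, Klf2 was not lower in enteroendocrine-like (ratio 1.15, from 447 and 1570 cells), goblet-like (1.00) or cycling-like cells (1.14), and was 0.873 in Paneth-like and 0.876 in stem-like cells. In that subset the immediate early sum was 7589 CPM in WT and 8199 in the NFKO-labelled library for enteroendocrine-like cells. With enteroendocrine-like cells ranked into 4 bins by immediate early share, Klf2 climbed from 79.9 to 992 CPM in WT and from 113.9 to 753 in the other library. The ratios by bin, lowest share first, were 1.43 (1.21 to 1.69), 0.901 (0.827 to 0.983), 1.03 (0.965 to 1.09) and 0.759 (0.724 to 0.795), and the top bin held 342 of 893 WT but 359 of 1910 NFKO cells. In Paneth-like cells the ratios were 1.05, 0.602, 0.472 and 0.550, with intervals below 1 in all but the lowest bin.

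**Figure D5:**
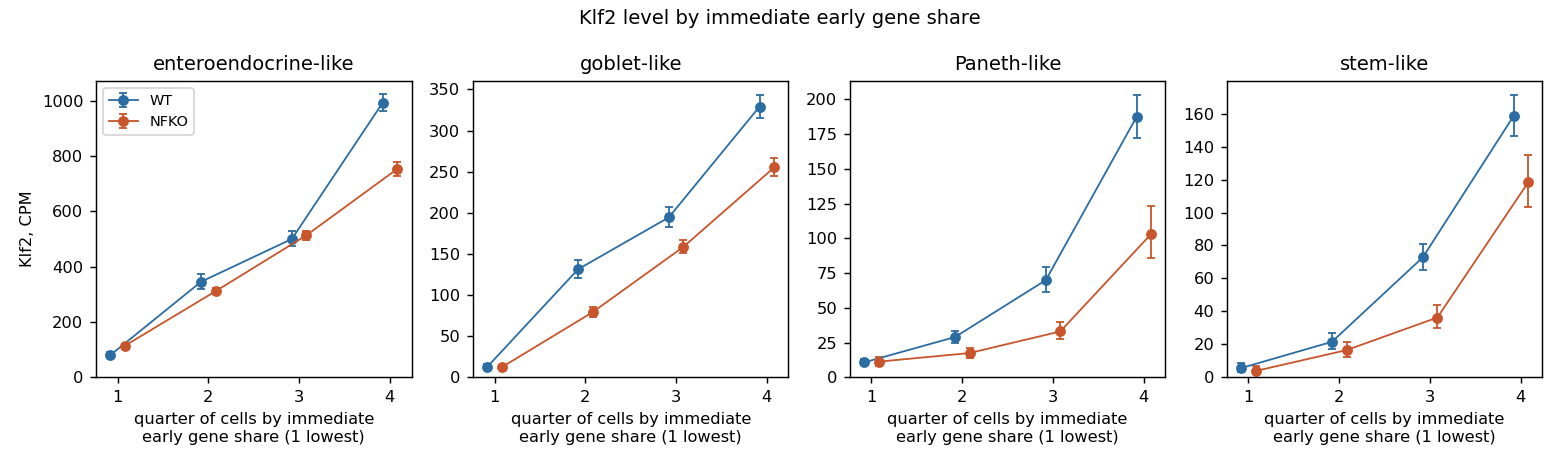
Klf2 in CPM in 4 classes, with the cells of a class ranked into 4 bins by their share of immediate early transcripts (1 lowest), WT in blue and the NFKO-labelled library in orange, with exact Poisson 95% intervals. Klf2 climbs with the immediate early share in both libraries, and the levels of the enteroendocrine-like cells lie furthest apart in CPM in the top bin, at 992 and 753, whereas in the lowest bin WT is the lower of the pair.

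The goblet-like ratio of Klf2 differed between clusters, and the cause was not tested. The ratio was 3.44 (2.96 to 4.02) in cluster 0 and 0.606 (0.473 to 0.786) in cluster 1, while in clusters 3 and 10 it was 0.859 and 1.09 with intervals that included 1. It was 2.28 without clusters mostly of 1 library and 1.66 weighted over clusters, so goblet-like cells had no settled direction. The enteroendocrine-like ratio was below 1 in 7 of 8 clusters, with 5 intervals below 1, and was 0.462 in male-typed cells (744 WT and 130 NFKO).

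Pdk4 encodes pyruvate dehydrogenase kinase 4, which spares glucose by blocking the oxidation of pyruvate. It belonged to Gip-dominant cells, the source of the incretin GIP, at 258 CPM in WT (228 to 291) and 127 in the NFKO-labelled library (118 to 137), giving a ratio of 0.492 (0.426 to 0.568). Cluster 2, where Gip led, had 144 and 93.7 CPM, giving a milder ratio of 0.651 (0.575 to 0.739). The next subtypes were Cck-dominant cells at 41.0 and 11.1 CPM (0.271, 0.178 to 0.412) and Gcg- or Pyy-dominant cells at 23.5 and 3.99 (0.170, 0.0822 to 0.324). After thinning to 2000 UMIs, 34.5% of WT (24.5 to 45.7) and 23.8% of NFKO Gip-dominant cells (19.2 to 28.8) had a Pdk4 UMI, against 71.4% and 62.2% unthinned at medians of 12181 and 17479.5 UMIs. Tph1-dominant cells, with little Pdk4, had 1.20% and 0.709%, at medians of 11375 and 10446.

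Over enteroendocrine-like cells as a whole Pdk4 was at 39.5 and 27.0 CPM, giving a ratio of 0.682 (0.606 to 0.769), while weighting over hormone subtypes gave 0.397. The ratio was not even over the bins by immediate early share. Lowest share first, it was 1.02 (0.811 to 1.28), 0.569 (0.462 to 0.704), 0.113 (0.0765 to 0.165) and 0.106 (0.0467 to 0.211). The cause was not tested. Gip-dominant cells were 84 of 893 in WT and 320 of 1910 in the other library. In male-typed Gip-dominant cells (70 and 20) the ratio was 0.557. Cluster 15, left unnamed for its depth (median 3518 UMIs), carried 12 enteroendocrine markers and had Pdk4 among its 10 leading genes, at 223 and 163 CPM (0.734, 0.517 to 1.03). Counting it as enteroendocrine-like added Pdk4 to the lower calls.

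Outside the endocrine cells Pdk4 was low and its directions differed. In goblet-like cells 100 WT and 28 NFKO UMIs gave 4.86 and 0.761 CPM, giving a ratio of 0.157 (0.0992 to 0.240). Of the WT UMIs 96 lay in cluster 3, the cluster of 592 WT and 25 NFKO cells, and without clusters mostly of 1 library the ratio was 1.04. In stem-like cells 34 and 8 UMIs gave a ratio of 0.336, which was 1.02 in male-typed cells, and in Paneth-like cells 69 and 31 UMIs gave 0.635 (0.402 to 0.983). In enterocyte-like cells 7 and 53 UMIs gave 1.08 and 7.36 CPM, giving a ratio of 6.81 (3.08 to 17.8). The mature cluster 8 held 1 and 47 of these UMIs, giving a ratio of 8.58 with a wide interval (1.47 to 346).

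By subtype, members at least 1.5-fold lower were 3 of 9 in Gip-dominant cells, Cdkn1b, Sesn1 and Pdk4 (background 12.6%), 2 of 8 in Gcg- or Pyy-dominant cells, Klf2 and Pdk4 (9.06%), and 3 of 9 in Cck-dominant cells, Ccng2, Gadd45a and Pdk4 (9.17%). Nts-dominant cells had 3 of 7, Gadd45a, Txnip and Klf2 (16.6%), and Sst-dominant cells 4 of 7, Sesn1, Gadd45a, Txnip and Klf2 (16.5%). Ghrl-dominant cells had 3 of 8, Ccng2, Cdkn1b and Klf2 (8.03%), Tph1-dominant cells 2 of 9, Cdkn1b and Klf2 (5.55%), and the Neurog3-dominant progenitors 0 of 8 (4.37%).

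Members at least 1.5-fold higher were fewer. Tph1-dominant cells had 3, Ccng2, Sesn3 and Bcl6 (background 11.9%), the last from 5 and 22 UMIs at 2.66 and 4.79 CPM, with an interval that included 1 (ratio 1.80, 0.665 to 6.08). Bcl2l11 was higher in Gip-dominant (6.74%), Sst-dominant (12.1%) and Ghrl-dominant cells (7.43%), each from the few WT UMIs given above. Ccng2 was higher in Nts-dominant cells (12.5%), with a ratio of 1.55 from 4 and 24 UMIs. In Gcg- or Pyy-dominant (5.19%), Cck-dominant (6.43%) and Neurog3-dominant cells (9.02%) 0 were higher. The progenitors were the only one of the 8 subtypes without a member past the fold in either direction. Beside 9.02% of all genes higher and 4.37% lower in these cells, 0 of 8 does not set them apart.

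The other genes of the pathway are given beside the shares of all genes past the fold, 6.60% higher and 6.44% lower in enteroendocrine-like cells and 4.97% and 6.40% in stem-like cells. The FoxO factors themselves had enteroendocrine-like ratios of 0.817 for Foxo3, 0.785 for Foxo4 and 1.04 for Foxo6, and 0 of 4 passed 1.5-fold. Of 24 measured other FoxO targets, 1 was higher, the cyclin gene Ccnd2 (ratio 1.76), and 4 were lower, among them Irs2, an insulin receptor substrate (36.9 and 19.2 CPM, 0.520), and Ccnd1 (0.577), while Cdkn1a, which encodes p21, had 1.27. Their median log2 ratio was -0.17. Of 16 insulin and PI3K-Akt genes, 0 were higher and 3 lower, the insulin-like growth factor receptor Igf1r (0.521) and Irs2 the most, and the highest ratios were 1.18 for Akt1 and 1.01 for Pdpk1. Of 15 FoxO regulators 1 was lower, the deacetylase Sirt1 (0.585), followed by Ep300 (0.828), with Ywhab at 1.11 and Ywhag at 1.08. Of 9 p53 targets 1 was higher, Phlda3 (0.919 and 2.20 CPM), and 1 lower, Trp53inp1 (0.617), with Sesn2, the third sestrin, at 0.714. In stem-like cells 1 of 22 other FoxO targets was higher and 6 were lower, with a median of -0.24, and Foxo4 and Foxo3 had ratios of 0.521 and 0.678.

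Patterns over the 14 points most like those of the other members, in WT and then in the NFKO-labelled library, were those of Tmprss7 (0.94 and 0.72), Cnr1 (0.92 and 0.84) and Nmnat2 (0.92 and 0.83) for Pdk4. Those for Gadd45a were Chmp1b (0.96 and 0.87), Lrrc42 (0.96 and 0.89) and Wdr45 (0.95 and 0.82). Those for Cdkn1b included Atf2 (0.96 and 0.91) and Plch1 (0.95 and 0.90), and those for Sesn3 were Pde7a (0.97 and 0.92), A530020G20Rik (0.96 and 0.88) and H1fx (0.95 and 0.91). Sesn1 was most like Tmem19, Usp12 and Faah, Txnip like Tmem199, Jund and Caml, Ccng2 like Eci2, Chmp1b and Sphk2, and Bcl2l11 like Cox7a2l, Gmeb1 and Fam49b, with WT correlations of 0.84 to 0.95. Bcl6 had no gene above 0.82, and its best match, Hist1h4i, was at 0.37 in the other library.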

How the data were processed

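The authors made single-cell libraries from sorted Tomato+ cells, and the deposited values are UMI counts per gene and cell, 1 matrix per library; the submitters' processing notes name Cell Ranger 5.0.1 and mm10. The annotation used for counting was not given in the sources used here.

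Barcodes with under 500 genes, under 1000 UMIs or over 25% mitochondrial UMIs were removed (38.1% of 5051 in WT and 25.3% of 7540 in NFKO; 35.6% and 17.3% were over the mitochondrial limit), then 126 and 340 doublets by Scrublet score (scanpy 1.11.5) at an expected 0.8% per 1000 barcodes, because the automatic threshold marked 57 (1.82%) and 3 (0.0533%). Cells were clustered in Seurat 5.3.0 (R 4.3.3) with 2000 variable genes, 30 components and resolution 0.8, giving 23 clusters, without integration and with the members, the FoxO factors and sex genes (19 genes) left out. A class needed 3 markers at least 2-fold higher. Clusters 14 and 15 were left unnamed. Hormone subtypes took the gene with the largest value relative to its 99th percentile; in 15.9% and 16.3% of cells a second hormone lay within 2-fold. Sums of UMIs, ratios and intervals were computed in Python 3.11.15 (scipy 1.17.1) and tested on simulated data. With 1 library per group no test was run.

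The rule for named genes took the 10 members, the 2 highest and 2 lowest genes of each other list with at least 50 UMIs in enteroendocrine-like cells, and the 3 genes most like each member, of which 1 is not reported here. Member values in classes the text passes over are plotted only. The members and lists were chosen with earlier results of these data known. Alternatives were other filters, scalings, classes, clusterings, folds and weights, male-typed cells and cells low in stress genes; those by cluster, subtype, immediate early bin and the shallow cluster were chosen after seeing the data.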

Additional observations from a re-analysis of the deposited data

Results flagged for a closer look

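The Pdk4 ratio of NFKO over WT differed in direction between classes: it was 6.81 in enterocyte-like cells, against 0.157 in goblet-like, 0.635 in Paneth-like and 0.336 in stem-like cells, each with a counting interval on its own side of 1. With 1 library per group the difference between classes was not tested. The counts behind it were 7 and 53 UMIs in enterocyte-like, 100 and 28 in goblet-like, 69 and 31 in Paneth-like and 34 and 8 in stem-like cells, WT first.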

How the results depend on the processing

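No paired analysis was possible because each group had 1 library. Every alternative below changed which cells, scaling or fold were used, and the cause of a change was not tested. Of 1029 recomputed ratios of the members and Foxo1, 103 lay on the other side of 1, and 13 of those had been called with an interval on 1 side of 1. Those 13 were as follows. In cells low in stress genes Klf2 was 1.15 in enteroendocrine-like, 1.00 in goblet-like and 1.14 in cycling-like cells, and Bcl2l11 was 1.01 in enterocyte-like cells. In male-typed cells Pdk4 was 1.02 in stem-like cells. With clusters named by hormone Gadd45a was 1.06 in Cck-dominant (13 WT cells) and 1.18 in Nts-dominant cells (8 WT UMIs). With each cell given the same weight it was 1.05 in Nts-dominant cells. Among alternatives chosen after seeing the data, leaving out clusters mostly of 1 library gave goblet-like ratios of 0.962 for Ccng2, 2.28 for Klf2 and 1.04 for Pdk4, and weighting over clusters gave 1.66 for goblet-like Klf2 and 0.917 for enterocyte-like Ccng2. Among the other 90, whose interval had included 1 or which were not called, were Bcl2l11 in goblet-like cells low in stress genes (1.16) and, in male-typed cells, Ccng2 in enteroendocrine-like (1.06) and stem-like cells (1.06), Bcl6 in enteroendocrine-like (0.412) and Sesn1 in enterocyte-like cells (0.602). Size factors moved the Foxo1 ratio over all cells to 0.937 and moved 138 of 138 member values by less than counting error.

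Counts of members called moved as follows. No share of all genes past the same fold in the same cells stands beside the counts here and in the next paragraph. They show only how the calls depend on the processing. At 2-fold the lower counts were 0 in enteroendocrine-like, 1 in goblet-like, 0 in Paneth-like, 0 in enterocyte-like, 2 in tuft-like, 1 in stem-like and 0 in cycling-like cells. At a looser fold, between 1 and 1.5, 1 was higher and 4 lower in enteroendocrine-like cells, 4 higher in Paneth-like, 1 higher in tuft-like and 7 lower in cycling-like cells. With no UMI minimum 1 was higher in tuft-like and 1 in cycling-like cells. At no more than 10% mitochondrial UMIs, 0 were lower in enterocyte-like and 1 in tuft-like cells, and with no such limit 2 were higher in Paneth-like cells. With doublets kept, 2 were lower in enteroendocrine-like cells, and 1 was higher and 1 lower in cycling-like cells. With equal weight per cell 2 were higher in Paneth-like, 1 higher in tuft-like and 4 lower in cycling-like cells.

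In male-typed cells 4 were lower in enteroendocrine-like cells, 0 higher and 7 lower in Paneth-like (8 NFKO cells), 0 higher and 3 lower in enterocyte-like, 1 lower in tuft-like, 2 lower in stem-like and 4 lower in cycling-like cells. With classes from each cell's own marker score 2 were lower in enteroendocrine-like cells, and 4 higher and 2 lower in Paneth-like cells. In cells low in stress genes 1 was lower in goblet-like cells, 3 higher and 0 lower in Paneth-like, 0 lower in enterocyte-like, 0 lower in tuft-like, 1 higher and 2 lower in stem-like, and 2 higher and 1 lower in cycling-like cells. Counting the shallow cluster as enteroendocrine-like made 2 lower. In goblet-like cells 2 were higher and 1 lower without clusters mostly of 1 library, and 2 higher and 0 lower when weighted over clusters. Depth limited Bcl6, Bcl2l11 and Pdk4 outside their main cells and nearly all tuft-like values.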
